A study of Mus musculus with 24 samples.

Results

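A set of 10 genes is described here whose RNA differed between Ppara knockout (KO) and wild-type (WT) mouse hearts. The genes were Plbd1, P3h4, Tesc, Apbb1, Irx3, Btnl9, Ndrg4, Bex1, Fam81a and Tmprss13. They were grouped as lying outside fuel metabolism, which does not mean that none of them has a role in it. They are 10 of the 18193 genes that the arrays represent by at least 1 probe set of a single gene, and they were chosen by their differences between KO and WT hearts in these same data. Their heart differences between KO and WT are therefore a description: calls by limma are counted there as part of how the genes were chosen, and support nothing. Tests are read for liver and for the difference between the sexes. The table of probes assigned 14 probe sets to these genes, and none of the 14 was shared with another gene in that table.

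The mice were SV129 animals of both sexes, 10 to 12 weeks old, killed at zeitgeber time 14. WT mice and mice with a knockout of PPARα were compared, with no treatment named in the labels, and liver and heart were taken. Each array held RNA of a pool of 4 animals. With 3 such pools for every combination of tissue, sex and genotype there were 8 groups and 24 arrays. Within each tissue pools 1 to 3 were WT males, 4 to 6 KO males, 7 to 9 WT females and 10 to 12 KO females. Because each pool averages 4 animals, the spread and the p-values given here measure differences between pools, not between animals. The part of Ppara that was deleted was not given in the sources used here. Values are log2 intensities, on which 1 unit is a doubling, and ± is the SD over pools.

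PPARα is a nuclear receptor that is activated by fatty acids and, bound to DNA together with RXR, raises the transcription of genes for fatty acid uptake and oxidation. The heart draws most of its energy from fatty acids and depends on this program. The 10 genes were listed for other roles: a phospholipase-like hydrolase, collagen modification, calcium signalling, an adaptor of the amyloid precursor protein, a transcription factor of the conduction system, a membrane protein of the immunoglobulin superfamily, a membrane protease and proteins best known from neurons.

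The labels were checked before the genes were described. Ppara lay between 6.73 and 7.27 in WT hearts and between 5.28 and 6.13 in KO hearts, and between 8.24 and 8.69 in WT livers and 7.27 and 7.60 in KO livers. Whether its probe set lies in the deleted part is not known here. The cardiomyocyte marker list had a median level between 12.99 and 13.23 in every heart pool. Heart pool 4, labelled male KO, had a level of 6.62 for Xist, the RNA of the inactive X chromosome, where the other male hearts had at most 3.12 and the female hearts at least 7.32. Its skeletal muscle list had a median of 4.99 against 3.00 to 3.44 in the other hearts. The Ppara level of 6.13, the highest of the KO hearts, was also that of pool 4. Male KO pools 5 and 6 had 5.38 and 5.45, and female KO hearts at most 5.74. In female KO heart pool 10 the Y-linked gene Eif2s3y stood at 3.34, while no other female heart passed 2.50. The hepatocyte list of pool 10 had a median of 4.90 against 3.42 to 3.98 in the other hearts. For the 10 genes, male heart values are therefore also given without pool 4, and female differences and the count of calls without pool 10. Values of the marker and related lists in female hearts are given with pool 10 included. In liver, Xist was at most 2.07 in males and at least 8.52 in females. Eif2s3y stood at 3.43, 3.08 and 4.46 in male KO livers, under the 4.73 to 5.18 of male WT livers. Female livers had at most 2.16. The cause of the lower Eif2s3y level in male KO livers was not tested. Array medians ran from 3.01 to 3.07 in heart and from 2.43 to 2.49 in liver. Precision is limited by the number of arrays.

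In KO hearts of both sexes 5 of the genes were lower and the other 5 higher. The median size of their differences was 1.15 in females and 1.00 in males on the log2 scale, where the median over all genes was 0.0758 and 0.0755. In females the KO pools of all 10 genes lay on 1 side of the WT pools, as did 12.1% of all genes, and in males those of 9 did, against 11.4% of all genes. Fam81a was the exception. The count in males was also 9 without pool 4, where 21.3% of all genes were separated. For 8 genes every KO heart pool of either sex lay on 1 side of every WT heart pool of either sex, against 1.11% of all genes, or 1.49% when pool 4 is left out, which did not change the 8. Bex1 and Fam81a were the exceptions. At an adjusted p under 0.05 in limma, 9 of the 10 were called in females, where 0.533% of all genes were called, and 8 in males, against 0.401% of all genes. In females 5 were called higher (0.121% of all genes) and 4 lower (0.412%), and in males 3 higher (0.0824%) and 5 lower (0.319%). Irx3 was not called in females, and Bex1 and Fam81a were not called in males. Without pool 4 the count in males was 7, since Irx3 was no longer called, and in females 9, while 0.401% and 0.495% of all genes were called. Without pool 10 the count in females was 6, since Tmprss13, Bex1 and Fam81a were no longer called. Of the 18193 genes, 63 were then called. The genes were chosen in this contrast, so nothing further is read from these counts. In RNA of whole tissue, fewer cells of a type and less RNA per cell cannot be told apart.

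**Figure D1:**
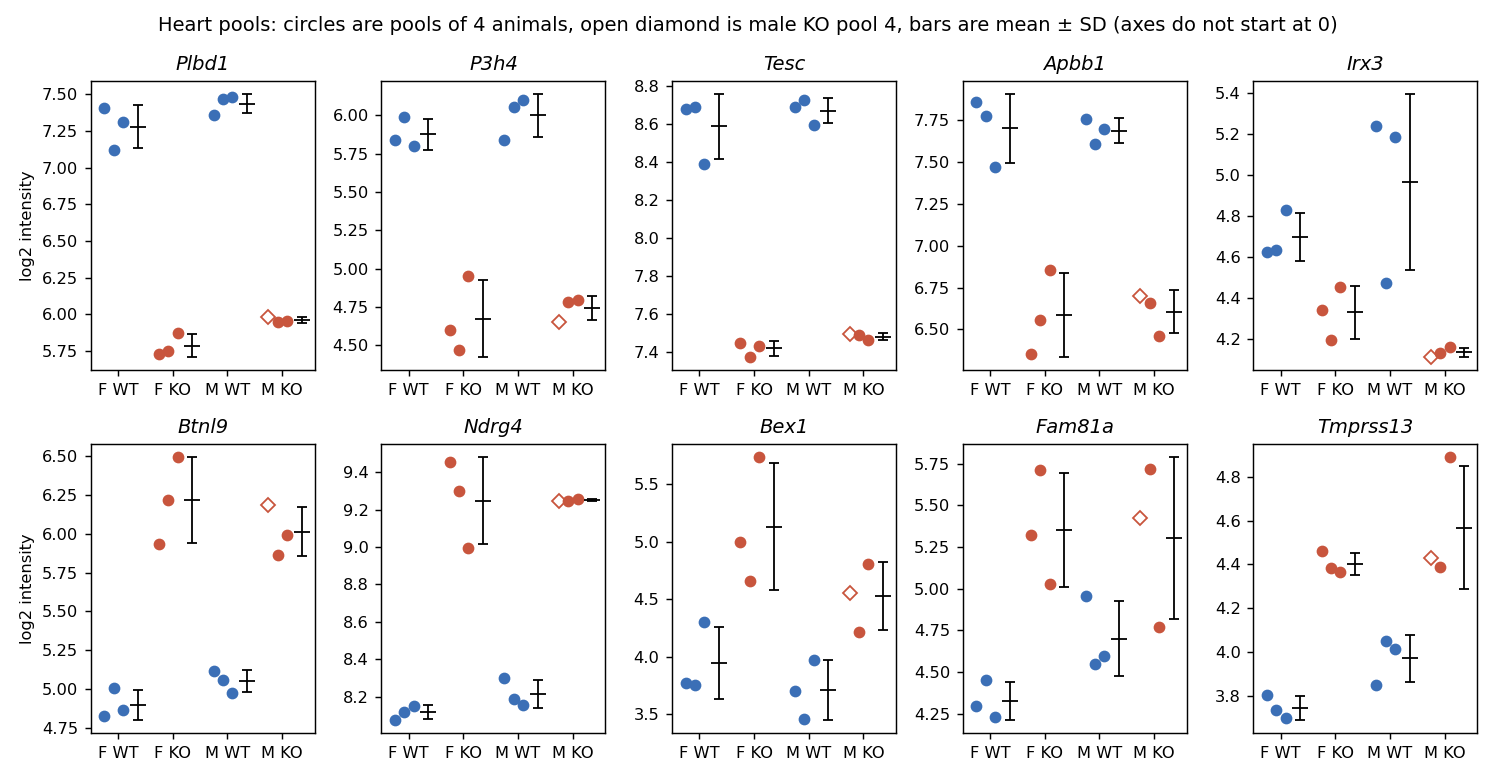
Log2 intensity of each of the 10 genes (1 panel each) in the 12 heart pools, by sex (F, M) and genotype, with the mean and SD over 3 pools beside the points. Plbd1, P3h4, Tesc, Apbb1 and Irx3 sit lower in KO pools and the other 5 genes higher, and the open diamond of male KO pool 4 lies with pools 5 and 6; the groups overlap only for Fam81a in males.

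Plbd1 had the largest difference of the genes that were lower. It encodes a phospholipase B-like hydrolase that was isolated from neutrophils. In female hearts the WT pools stood at 7.41, 7.12 and 7.31 and the KO pools at 5.73, 5.75 and 5.87. In male hearts the WT pools stood at 7.36, 7.46 and 7.48 and the KO pools at 5.98, 5.95 and 5.95. The 6 KO pools thus lay within a narrow band more than 1 unit under the lowest WT pool of either sex. The level was 2.82-fold lower in KO females (7.28 ± 0.15 against 5.79 ± 0.08, n = 3 pools each) and 2.78-fold lower in KO males (7.44 ± 0.06 against 5.96 ± 0.02, n = 3 pools each). Without pool 4 the male value was 2.80-fold, and without pool 10 the female log2 difference was -1.47. Among all 18193 genes this was rank 8 of the genes that were lower in females and rank 5 in males. Its paralog Plbd2 had female means of 4.44 in WT and 4.04 in KO and male means of 4.33 and 4.23, and was called in neither sex (limma adjusted p = 0.483 and 0.96). None of 10 measured genes of that family and of the lysosome was called, with median log2 differences of -0.0042 and 0.0485.

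Since Plbd1 differed most from its WT level, the 250 bases before its annotated start are shown, at chr6:136661894-136662143 on the minus strand of GRCm38.p6 (RefSeq), written 5′ to 3′ in the direction of the gene. Capitals would mark AGGTCA, the core hexamer that PPARα and RXR bind as a direct repeat with 1 base between, on either strand. The stretch holds none.
Plbd1 promoter: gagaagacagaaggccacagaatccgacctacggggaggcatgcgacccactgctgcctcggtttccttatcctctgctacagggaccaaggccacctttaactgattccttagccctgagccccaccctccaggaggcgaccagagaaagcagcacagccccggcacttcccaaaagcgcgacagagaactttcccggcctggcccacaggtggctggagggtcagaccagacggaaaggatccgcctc

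P3h4 encodes a protein of the endoplasmic reticulum that belongs to the prolyl 3-hydroxylase family but lacks the enzyme's catalytic part, and that acts with P3h3 in the modification of collagen lysines. Its female WT hearts stood at 5.84, 5.99 and 5.80 and the KO hearts at 4.60, 4.47 and 4.95. The male WT hearts stood at 5.84, 6.05 and 6.10 and the KO hearts at 4.65, 4.78 and 4.80. Every KO pool was under every WT pool, with a gap of 0.85 in females and 1.04 in males. P3h4 was 2.30-fold lower in KO females (5.87 ± 0.10 against 4.67 ± 0.25) and 2.39-fold lower in KO males (5.998 ± 0.14 against 4.74 ± 0.08), or 2.31-fold without pool 4. Without pool 10 the female log2 difference was -1.16.

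The other genes of collagen modification did not pass the test in KO hearts. None of 13 measured genes for collagen hydroxylation, folding and glycosylation was called in either sex, with a median log2 difference of 0.0049 in females and 0.0928 in males, where the medians of all genes were -0.0053 and 0.0038. P3h3, the partner of P3h4, had female means of 3.76 in WT and 3.80 in KO and male means of 3.76 and 4.04 (limma adjusted p = 0.99 and 0.729). The catalytic P3h1 differed by 0.0395 in females and 0.0424 in males. Of 9 collagen genes none was called either, and their median log2 differences were 0.13 and 0.14.

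Tesc encodes tescalcin, an EF-hand calcium-binding protein related to the regulatory subunit of calcineurin that binds the sodium-proton exchanger of the cell surface. With its brighter probe set the female WT hearts stood at 8.68, 8.69 and 8.39 and the KO hearts at 7.45, 7.37 and 7.43. The male WT hearts stood at 8.69, 8.72 and 8.60 and the KO hearts at 7.49, 7.49 and 7.46. The groups did not overlap, and the 6 KO pools lay together between 7.37 and 7.49. Tesc was 2.25-fold lower in KO females (8.59 ± 0.17 against 7.42 ± 0.04) and 2.28-fold lower in KO males (8.67 ± 0.07 against 7.48 ± 0.02), or 2.29-fold without pool 4. The name of this probe set ends in _s_at, which marks probes that can bind related transcripts. The second probe set, without that mark, was 2.17-fold lower in KO females and 2.41-fold lower in KO males. Of 8 measured genes of calcineurin, its regulators and the Tesc family none was called in either sex (median log2 differences 0.0218 and -0.0231).

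Apbb1 encodes Fe65, an adaptor that binds the cytoplasmic tail of the amyloid precursor protein. Its female WT hearts stood at 7.86, 7.78 and 7.47 and the KO hearts at 6.35, 6.55 and 6.85. The male WT hearts stood at 7.76, 7.61 and 7.70 and the KO hearts at 6.70, 6.66 and 6.46. Female KO pool 12 was the KO pool nearest to WT and female WT pool 9 the lowest WT pool, and a gap of 0.62 separated them. Apbb1 was 2.16-fold lower in KO females (7.70 ± 0.20 against 6.59 ± 0.25) and 2.12-fold lower in KO males (7.69 ± 0.08 against 6.61 ± 0.13), or 2.19-fold without pool 4. This brighter probe set ends in _x_at, which marks probes that can bind unrelated transcripts. The other one differed by 2.15-fold in females and by 2.07-fold in males. The paralogs Apbb2 and Apbb3 differed by 0.045 and -0.0115 on the log2 scale in females and by 0.0927 and -0.18 in males. None of 11 genes of the amyloid precursor protein, its paralogs and its binding partners was called.

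Irx3, an Iroquois homeobox transcription factor of the fast-conducting His-Purkinje system, had the smallest and least even difference of the 5. In males the WT pools stood at 5.24, 4.47 and 5.19 and the KO pools at 4.12, 4.13 and 4.16. In females the WT pools stood at 4.62, 4.64 and 4.83 and the KO pools at 4.34, 4.20 and 4.45. All KO pools lay under all WT pools, but male WT pool 2 was near the female KO pools. Irx3 was 1.78-fold lower in KO males (4.97 ± 0.43 against 4.14 ± 0.02), or 1.77-fold without pool 4, and 1.29-fold lower in KO females (4.70 ± 0.12 against 4.33 ± 0.13). Of 16 measured Iroquois and conduction genes none was called, with median log2 differences of 0.0343 in females and -0.0267 in males. Its chromosomal neighbour and paralog Irx5 differed by -0.23 in females and -0.34 in males (limma adjusted p = 0.731 and 0.45), and Irx4, the ventricular member of the family, by 0.12 and -0.0683.

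Btnl9 had the largest difference of the genes that were higher in KO females. It encodes a butyrophilin-like protein of the immunoglobulin superfamily whose RNA is abundant in capillary endothelium. The female WT hearts stood at 4.82, 5.003 and 4.86 and the KO hearts at 5.94, 6.22 and 6.49. The male WT hearts stood at 5.12, 5.06 and 4.97 and the KO hearts at 6.18, 5.87 and 5.99. The lowest KO pool was 0.93 above the highest WT pool in females and 0.75 above it in males. Btnl9 was 2.50-fold higher in KO females (4.90 ± 0.10 against 6.22 ± 0.28) and 1.95-fold higher in KO males (5.05 ± 0.07 against 6.01 ± 0.16), or 1.84-fold without pool 4. A second probe set was near the array median of 3.03, with values from 2.45 to 3.16 in heart, and differed by 0.29 in females and by -0.0843 in males, so the higher level of Btnl9 rests on 1 probe set.

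Endothelial markers were measured beside Btnl9. Of 13 markers, Fabp4 was higher (10.65 in WT and 11.13 in KO) and the water channel gene Aqp1 lower (9.84 and 9.21) in KO females (limma adjusted p = 0.0417 and 0.0333), and none was called in males. The median log2 difference of the list was 0.007 in females and 0.0347 in males. Its median level lay between 6.92 and 7.08 in WT females and between 7.16 and 7.21 in KO females, and between 6.73 and 7.15 in WT males and 7.08 and 7.29 in KO males. Whether the share of endothelial cells contributed to the Btnl9 values was not tested. None of 4 measured butyrophilin family genes was called.

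Ndrg4 belongs to the NDRG family of proteins with a hydrolase fold and is expressed mainly in brain and heart. The female WT hearts stood at 8.08, 8.12 and 8.15 and the KO hearts at 9.45, 9.30 and 8.99. The male WT hearts stood at 8.30, 8.19 and 8.16 and the KO hearts at 9.25, 9.25 and 9.26. The groups were apart in both sexes, and the 3 male KO pools, pool 4 among them, nearly coincided. Ndrg4 was 2.19-fold higher in KO females (8.12 ± 0.04 against 9.25 ± 0.23) and 2.05-fold higher in KO males (8.21 ± 0.07 against 9.25 ± 0.01), and also 2.05-fold without pool 4. The name of this probe set ends in _s_at. The second probe set gave 2.22-fold in females and 2.34-fold in males. The family members Ndrg1, Ndrg2 and Ndrg3 were not called, with log2 differences of -0.0793, -0.0072 and 0.22 in females and 0.0629, -0.17 and 0.0843 in males.

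For comparison, 1 stretch each of Ndrg4 and Btnl9 shows the search for the same core hexamer in genes that were higher. RefSeq gives 4 starts for Ndrg4, and the second holds the only core hexamer found among these genes, with its first base 185 bases before the start; it is on the plus strand at chr8:95677513-95677762 of GRCm38.p6, while Btnl9 is on the minus strand at chr11:49187090-49187339. Both are written 5′ to 3′ in the direction of the gene, with the core hexamer in capitals.
Ndrg4 second promoter: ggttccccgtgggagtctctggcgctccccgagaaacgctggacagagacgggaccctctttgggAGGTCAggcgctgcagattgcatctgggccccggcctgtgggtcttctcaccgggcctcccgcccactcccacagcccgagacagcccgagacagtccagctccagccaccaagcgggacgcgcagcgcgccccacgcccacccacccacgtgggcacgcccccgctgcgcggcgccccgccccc
Btnl9 promoter: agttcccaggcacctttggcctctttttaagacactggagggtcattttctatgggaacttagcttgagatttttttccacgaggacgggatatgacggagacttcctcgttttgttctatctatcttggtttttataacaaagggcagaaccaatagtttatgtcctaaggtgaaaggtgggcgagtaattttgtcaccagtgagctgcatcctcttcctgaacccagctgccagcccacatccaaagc

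RefSeq promoters were matched for 8 of the 10 genes, 13 starts in all. The core hexamer AGGTCA, searched on both strands in the 250 bases before a start, was found at 1 of these 13 starts and at 14% of 32841 promoters of the same length. The direct repeat AGGTCANAGGTCA, which contains the core hexamer, was found at none of the 13 and at 0.0335% of all promoters. These are matches of letters in a short window and say nothing of where the receptor binds.

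Bex1, Fam81a and Tmprss13 were also higher in KO hearts, with a wider spread or a lower level. Bex1 encodes a small X-linked protein that is abundant in brain. Its female WT hearts stood at 3.77, 3.76 and 4.30 and the KO hearts at 4.998, 4.65 and 5.74. Its male WT hearts stood at 3.70, 3.45 and 3.97 and the KO hearts at 4.55, 4.22 and 4.81. The groups did not overlap within a sex, but male KO pool 5 lay under female WT pool 9. Bex1 was 2.28-fold higher in KO females (3.94 ± 0.31 against 5.13 ± 0.55) and 1.76-fold higher in KO males (3.71 ± 0.26 against 4.53 ± 0.30), or 1.74-fold without pool 4. Of 7 measured BEX and TCEAL family genes none was called. Bex3, named after its values were seen, was nearest to the threshold, with male means of 6.71 in WT and 7.13 in KO (limma adjusted p = 0.0787) and female means of 6.77 and 6.95 (limma adjusted p = 0.777).

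Fam81a encodes a protein with coiled-coil regions. Its female WT hearts stood at 4.30, 4.45 and 4.23 and the KO hearts at 5.32, 5.71 and 5.03. Its male WT hearts stood at 4.96, 4.55 and 4.60 and the KO hearts at 5.42, 5.72 and 4.77. Male KO pool 6 lay among the WT pools, while the other 5 KO pools were above all WT pools. Fam81a was 2.04-fold higher in KO females (4.33 ± 0.11 against 5.35 ± 0.34) and 1.52-fold higher in KO males (4.70 ± 0.22 against 5.31 ± 0.49), or 1.46-fold without pool 4. Its paralog Fam81b had female means of 2.33 in WT and 2.31 in KO, below the heart array median.

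Tmprss13 encodes a serine protease anchored in the membrane, of the family that includes corin, the enzyme that activates the heart's natriuretic peptides. Its female WT hearts stood at 3.81, 3.73 and 3.70 and the KO hearts at 4.46, 4.38 and 4.37. Its male WT hearts stood at 3.85, 4.05 and 4.01 and the KO hearts at 4.43, 4.39 and 4.89. The lowest KO pool was 0.56 above the highest WT pool in females and 0.34 above it in males. Tmprss13 was 1.58-fold higher in KO females (3.74 ± 0.06 against 4.40 ± 0.05) and 1.51-fold higher in KO males (3.97 ± 0.11 against 4.57 ± 0.28), or 1.59-fold without pool 4. None of 13 measured proteases of this family and their inhibitors was called, and Corin differed by -0.19 in females and -0.12 in males.

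The 5 genes that were higher did not share their highest KO pool. Among female KO hearts Ndrg4 and Tmprss13 were highest in pool 10, Fam81a in pool 11 and Btnl9 and Bex1 in pool 12. Among male KO hearts Btnl9 was highest in pool 4, Fam81a in pool 5 and Bex1, Tmprss13 and Ndrg4 in pool 6. Pool 4 lay on the KO side of every male WT pool for all 10 genes, by 0.36 (Irx3) to 1.38 (Plbd1), and between pools 5 and 6 for Tmprss13, Bex1 and Fam81a. Its distance from the mean of those 2 pools ran from -0.21 for Tmprss13 to 0.25 for Btnl9. Without female pool 10 the log2 differences of the 5 genes were 1.46 for Btnl9, 1.03 for Ndrg4, 1.25 for Bex1, 1.04 for Fam81a and 0.63 for Tmprss13. Those of Tesc, Apbb1 and Irx3 were then -1.18, -0.997 and -0.37, so that no gene changed its direction.

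**Figure D2:**
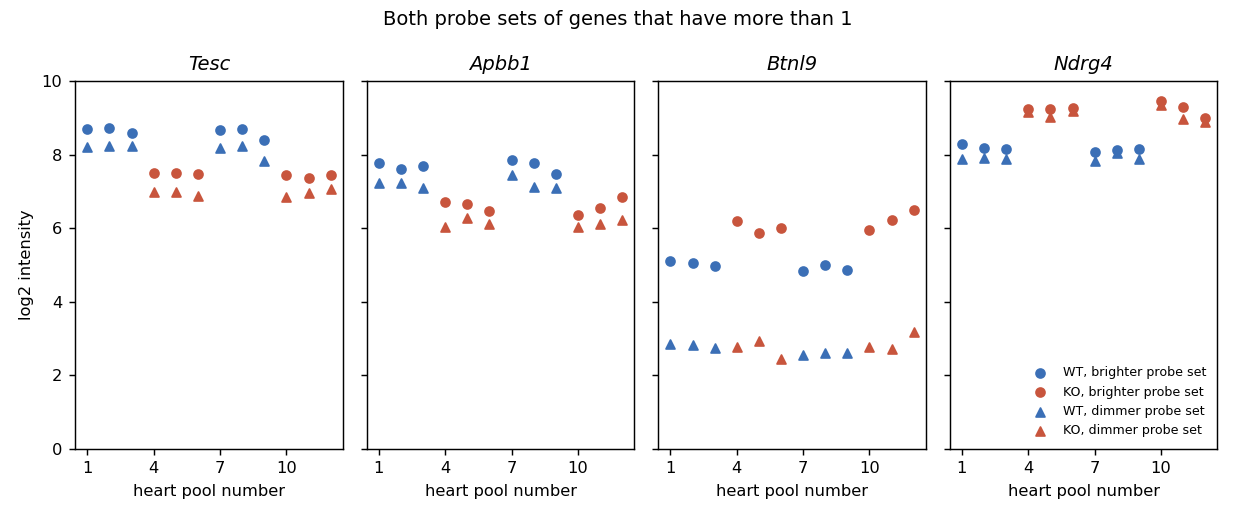
Log2 intensity in the 12 heart pools (x axis, by pool number) for both probe sets of the 4 genes that have more than 1, WT in blue and KO in red. Both probe sets of Tesc, Apbb1 and Ndrg4 separate KO from WT pools; for Btnl9 the brighter one does, while the dimmer one lies between 2.45 and 3.16 and overlaps in males.

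Across the 11 lists of genes related by family or process, 95 genes were measured in heart and none was called at an adjusted p under 0.05 in limma in either sex, while 9 in females and 5 in males had an unadjusted p under 0.05, as had 6.85% and 6.58% of all genes. Their log2 differences ran from -0.46 to 0.56 in females and from -0.34 to 0.42 in males. By comparison, 12 of 19 measured PPARα targets of fuel metabolism were called lower and none was called higher in each sex. Of all genes, 0.412% were called lower in females and 0.319% in males. Without pool 4 the count of these targets was 11 in females and 12 in males. Their median log2 differences were -0.59 and -0.61, and the droplet coat gene Plin5 differed by -3.04 and -3.09. The lists and the 10 genes were chosen with results of these data known, so the contrast between them is a description.

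**Figure D3:**
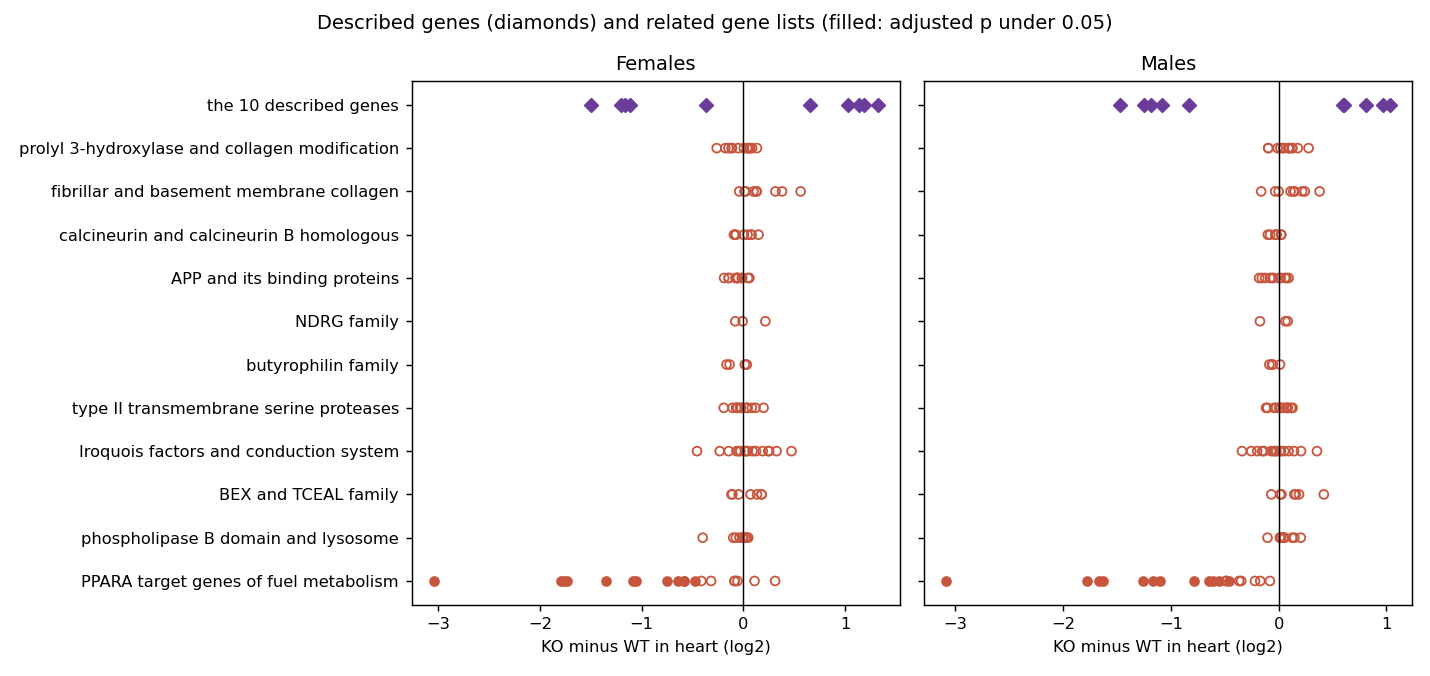
KO minus WT difference in heart (x axis, log2 intensity) for the 10 described genes (diamonds) and for the listed genes (circles). The circles are the genes of the related lists, except Fam81b, and the PPARα targets. Females are left and males right, and filled circles passed at a limma adjusted p under 0.05. The related genes lie between -0.46 and 0.56 with none filled. In each panel 12 circles of the list of PPARα targets are filled, all of them lower in KO.

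Markers of cell types were compared in the same way, since some of the 10 genes are known from neurons, fibroblasts, endothelium or blood cells. Of 95 measured markers, 26 in females and 15 in males had an unadjusted p under 0.05 in limma. Of all genes 6.85% and 6.58% were under it, so the markers were above that share in both sexes. Among 10 neuronal markers none was called, and the list's median level lay between 2.73 and 3.00 in every heart pool, near or under the array median of 3.03. None of the markers of cardiomyocytes (9), fibroblasts (9), smooth muscle and pericytes (8) or macrophages and myeloid cells (11) was called, nor any of skeletal muscle (12), adipocytes (5), hepatocytes (5), Schwann cells (4) or erythroid cells (3). The myeloid list's median level lay between 4.73 and 4.82 in WT males and between 4.98 and 5.10 in KO males, without overlap. In females it lay between 4.96 and 5.01 in WT and between 4.76 and 5.09 in KO. Median levels also did not overlap for the skeletal muscle list in males, and for the cardiomyocyte, endothelial and atrial lists in females. Of all single genes, 11.4% were separated in male hearts and 12.1% in female hearts. The part of myeloid cells in the values of the 10 genes was not tested. The log2 differences of all markers ran from -1.52 (Adipoq, of adipocytes) to 1.37 (Alb, of hepatocytes) in females. In males they ran from -1.07 (Acta1) to 1.08 (Tnnc2), both from the skeletal muscle list. The skeletal muscle list had a median difference of 0.47 in males, or 0.0387 without pool 4. The lowest median level of this list in a male KO pool, 3.32, was still above the highest in a male WT pool, 3.24. The hepatocyte list had a median difference of 0.25 in females, with pool 10 included. The adipocyte list had medians of -0.17 in females and -0.0765 in males, or -0.31 in males without pool 4. The part of these tissues in the values of the 10 genes was not tested beyond leaving out pools 4 and 10. Of 6 atrial markers 2 were lower in KO females, Sln (9.98 in WT and 9.28 in KO) and Myl7 (11.49 and 10.84), at a limma adjusted p of 0.0169 and 0.0126, and none in males. The atrial list's median level lay between 10.22 and 10.34 in WT females and between 9.53 and 9.92 in KO females, and between 10.06 and 10.35 in WT males and 10.16 and 10.51 in KO males. The part of atrial tissue in the female values of the 10 genes was not tested.

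The genes whose pattern over the 12 heart arrays was most like that of each described gene were found by the root mean square difference of centred log2 values. For Plbd1 these were Cpt2, an enzyme of the carnitine route of fatty acids into mitochondria (0.147), and Ech1, an enzyme for unsaturated fatty acids (0.174). For Tesc they were Cpt2 (0.102) and Ephx2, the soluble epoxide hydrolase (0.103). For P3h4 they were Tesc (0.138) and Coq3, of ubiquinone synthesis (0.157), and for Apbb1 Tesc (0.138) and Acadvl, the very long-chain acyl-CoA dehydrogenase (0.152). Irx3 lay nearest to Acadm, the medium-chain acyl-CoA dehydrogenase (0.179), and Hsdl2, a peroxisomal protein (0.187). These neighbours were picked over the same KO and WT hearts, so a like difference between KO and WT follows from the choice.

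Among the genes that were higher, Btnl9 and Ndrg4 were among the nearest pair of each other (0.236), and Myot, a gene of the sarcomere's Z-disc, was the other neighbour of both (0.255 and 0.194) and the first of Fam81a (0.231), before Ndrg4 (0.296). Tmprss13 lay nearest to Ddah1 (0.125), which degrades inhibitors of nitric oxide synthase, and the chemokine gene Ccl11 (0.153). Bex1 had the most distant neighbours, Btnl9 (0.35) and Marcks (0.374).

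In liver none of the 10 genes passed the test between KO and WT, where 0.813% of all genes passed in females and 0.605% in males. At an unadjusted p under 0.05 there were 2 in females, Plbd1 and Fam81a, where 6.87% of all genes were under it, and 1 in males, Fam81a, against 8.75% of all genes. Plbd1 was the one gene with a level in liver far above the array median. Its female livers stood at 7.54, 7.57 and 7.69 in WT and at 7.81, 7.95 and 7.86 in KO. Its male livers stood at 7.50, 7.60 and 7.13 in WT and at 7.33, 7.45 and 7.13 in KO. Female KO livers thus lay above the WT livers without overlap, as in 10.4% of all genes, while the males overlapped. The difference was 0.27 in females (95% interval 0.0143 to 0.53, limma adjusted p = 0.668) and -0.11 in males (95% interval -0.37 to 0.15, limma adjusted p = 0.841). Both intervals leave out a difference as large as the -1.49 and -1.48 of the hearts.

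The other 9 genes lay near or under the array median in liver, so that a lower level there could hardly have been measured. Ndrg4, Tmprss13, Irx3 and Bex1 were under the median of their array in all 12 liver pools. P3h4 and Apbb1 were above it in 2 pools, Btnl9 in 4 and Fam81a in 8. Tesc was above it in all 12 but only reached 3.00. The groups of Fam81a did not overlap in males either, as in 16.7% of all genes, and its 6 KO livers lay above its 6 WT livers, while 1.06% of all genes were separated in this way. Its female WT livers stood at 2.54, 2.47 and 2.44 and the KO livers at 2.74, 2.59 and 2.74. Its male WT livers stood at 2.37, 2.40 and 2.54 and the KO livers at 2.80, 2.71 and 2.57. The difference was 0.21 in females (95% interval 0.0247 to 0.39, limma adjusted p = 0.584) and 0.25 in males (95% interval 0.0714 to 0.44, limma adjusted p = 0.373), so it did not pass. The female groups of Irx3 were also apart, by 0.0188 on the log2 scale.

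**Figure D4:**
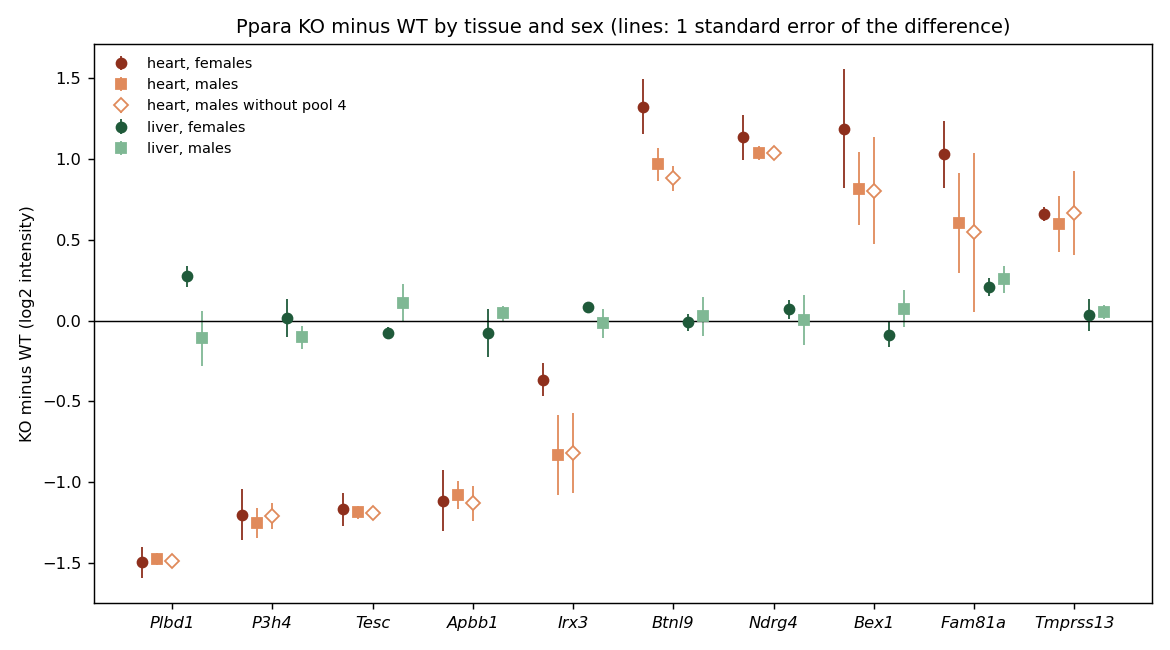
KO minus WT difference in log2 intensity (y axis) of the 10 genes in heart and liver, by sex, with males also without pool 4; lines are 1 standard error of the difference. Heart differences run from -1.49 for Plbd1 to 1.32 for Btnl9 in females, and liver differences lie between -0.11 and 0.27.

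The sexes were compared over both genotypes together. With 3 pools in every group, this contrast does not draw on the difference between KO and WT. Without pool 4 the groups are unequal, and this no longer holds exactly. In heart none of the 10 genes passed, against 0.055% of all genes, and none without pool 4, against 0.0934%. At an unadjusted p under 0.05 there were 3, Plbd1, Tmprss13 and Bex1, with all pools, where 7.82% of all genes were under it. Bex1 had the largest difference of the 10, with means of 4.54 in females and 4.12 in males (limma adjusted p = 0.569). In liver Plbd1 was higher in females by 0.38 (SE 0.0845, limma adjusted p = 0.0215), with means of 7.74 in females and 7.36 in males, where 4.44% of all genes passed. Without male KO pool 6, female WT pool 9 or female KO pool 11 it did not pass (adjusted p = 0.0533, 0.0561 and 0.0558). None of the other 9 genes passed in liver.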

How the data were processed

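RNA of 24 pools was hybridised to Affymetrix mouse arrays. The deposited values are log2 intensities made by the authors with RMA, per the submitters' processing notes, and the version and genome build are not given in the sources used here. Array medians differed between tissues (3.03 in heart, 2.45 in liver), so levels were compared only within a tissue. Of 45101 probe sets, 64 were controls, 34945 named 1 gene, 932 named several genes and were not used, and the rest were unnamed here. A gene was represented by its probe set with the highest mean over the 24 arrays. Each tissue's 12 arrays were fitted with a mean per group in limma 3.58.1 (R 4.3.3), and p-values were adjusted over 18193 genes by Benjamini-Hochberg, with a threshold of 0.05. The procedure was tested on simulated data. Beyond the 10 genes, the rule named up to 4 called genes per list with the largest differences, the 2 genes with the most similar heart pattern for each gene, and Ppara, Xist and Eif2s3y as checks. Paralogs and partners that were not called were named after their values were seen. The 10 genes and all lists were chosen with earlier results of these data known. Alternatives included other variance models, array weights, other choices of arrays and probe sets, and each pool left out. Promoters of 250 bases came from RefSeq, GRCm38.p6.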

Additional observations from a re-analysis of the deposited data

Results flagged for a closer look

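In females the difference between KO and WT had opposite signs in heart and liver for 2 genes, with every pool of a tissue on the same side, and this difference between tissues was not tested. Of all genes, 0.583% were separated in both tissues in opposite directions, 12.1% were separated in female heart and 10.4% in female liver, and these genes had been chosen on the heart side. Plbd1 was higher in every KO liver than in every WT liver (0.27 on the log2 scale) and lower in every KO heart (-1.49). Irx3 was higher in every KO liver by a mean of 0.0860 and lower in every KO heart (-0.36), but its liver values lay under the array median in all pools.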

How the results depend on the processing

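The 10 genes were chosen on their heart differences, so how their heart calls moved is a description and no sign of stability. The count of the 10 that were called ran from 6 to 9 in female hearts and from 6 to 8 in male hearts. In females Tmprss13 was not called without pool 8, 9 or 10, Fam81a without any single pool from 7 to 11, and Bex1 without pool 7, 8, 10 or 12, with the compared arrays alone or with a trended and robust variance. In males Irx3 was not called without pool 1, 3, 4, 5 or 6, and Tmprss13 without pool 1, 2, 3 or 6, nor either of them with the compared arrays alone. Without pools 4 and 10 together, none of these was called. Fam81a was called in males without pool 6 (0.87), and Btnl9 was not called in males when its probe sets were averaged (0.44). Over all genes, 97 were called in female hearts, 59 without pools 4 and 10, and 61 to 90 with 1 pool left out (61, 62 and 63 without pools 7, 8 and 10). In female livers 148 were called, 55 in a fit of the compared arrays alone, 267 in a fit of all 24 arrays, 326 with array weights, and 88 to 203 with 1 pool left out (88, 90 and 96 without pools 11, 8 and 7). In male livers 110 were called, 169 with the compared arrays alone, 180 with all 24 arrays, and 55 to 80 with 1 pool left out (55 to 69 without pools 1, 2, 3 or 5). Between the sexes 10 genes were called in heart, 16 with a trended and robust variance, 19 when every probe set was tested, and 4 to 17 with 1 pool left out (4 to 6 without pools 1, 2, 8, 9, 11 or 12, and 17 without pool 4). In liver 808 were called between the sexes, 1255 with all 24 arrays and 1236 with array weights, and Plbd1 gave a count of 0 to 1 with 1 pool left out. The causes were not tested. No paired analysis was possible because the groups compared within a tissue share no pool numbers. With 3 pools a group and 9 of the genes near or under the array median in liver, small liver differences were not detectable.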
